A study of Mus musculus with 15 samples.

Results

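The genes described here are the VEGF and angiopoietin ligands Vegfa, Vegfb, Vegfc, Pgf, Angpt1 and Angpt2, with the angiopoietin-like gene Angptl2. They were taken by name and read from the probe sets that carry their Entrez numbers, and all 7 were found among the 25206 probe sets of the table. Expression was measured on 15 Affymetrix arrays of adipocytes that had been sorted by flow cytometry from UCP1/Tomato mice aged 8 to 10 weeks. The WAT group (4 arrays) was the UCP1-negative, white cells of inguinal fat without treatment. The BAT group (3 arrays) was the UCP1-positive cells of brown fat, also without treatment. The other groups held UCP1-positive adipocytes from inguinal fat after treatment of the mice. CL (3 arrays) followed CL316243, an agonist of the adipocyte beta-adrenergic receptor. RS (2 arrays) followed roscovitine, an inhibitor of cyclin-dependent kinases, and RG (3 arrays) followed rosiglitazone, an agonist of the nuclear receptor PPARG. UCP1 is the mitochondrial protein by which brown and beige fat cells make heat. The sorting label gives its marker as GFP and the mouse name gives Tomato, so which reporter was gated on is unclear. Dose, treatment time and sex are not given in the sources used here, and nothing there says that arrays came from separate animals, so the p-values here rest on a spread that may be technical. No UCP1-positive cells of untreated inguinal fat were analysed here, so in CL, RS and RG against WAT the treatment and the gate cannot be told apart.

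The ligands of the VEGF family bind receptor tyrosine kinases of endothelial cells. VEGFA signals through FLT1 and KDR, VEGFB and PGF bind FLT1, and VEGFC acts on FLT4 and drives the growth of lymphatic vessels. The angiopoietins bind the receptor TIE2, encoded by Tek: ANGPT1 activates it and stabilises vessels, while ANGPT2 can block it and is made mainly by endothelial cells. ANGPTL2 is a secreted adipokine that binds integrin alpha5 beta1 and the leukocyte receptor PIRB. In fat tissue, VEGFA made by adipocytes is known to keep up the capillary supply, which is dense in brown fat.

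The promoters of 3 ligands are printed because their genes mark the contrast in the results: Vegfb was called higher and Angptl2 lower than in WAT in several groups, whereas Vegfa, the best-known ligand, was not called in any comparison. Each run is the 250 bases before the annotated start in RefSeq (GRCm38.p6), written 5′ to 3′ on the strand of the gene. The windows are chr19:6987652-6987901, minus strand for Vegfb, chr2:33215711-33215960, plus strand for Angptl2 and chr17:46032378-46032627, minus strand for Vegfa. Capitals mark every match to the motifs searched on both strands.
Vegfb: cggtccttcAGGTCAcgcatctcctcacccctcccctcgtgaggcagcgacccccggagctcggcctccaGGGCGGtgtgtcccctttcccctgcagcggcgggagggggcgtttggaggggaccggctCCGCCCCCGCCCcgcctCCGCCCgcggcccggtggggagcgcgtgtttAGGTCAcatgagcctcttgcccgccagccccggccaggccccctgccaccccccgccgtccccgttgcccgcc
Angptl2: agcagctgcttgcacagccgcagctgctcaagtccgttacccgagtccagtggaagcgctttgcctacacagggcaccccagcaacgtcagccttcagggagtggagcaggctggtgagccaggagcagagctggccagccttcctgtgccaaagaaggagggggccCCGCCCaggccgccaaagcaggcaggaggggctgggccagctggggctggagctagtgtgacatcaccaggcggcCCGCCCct
Vegfa: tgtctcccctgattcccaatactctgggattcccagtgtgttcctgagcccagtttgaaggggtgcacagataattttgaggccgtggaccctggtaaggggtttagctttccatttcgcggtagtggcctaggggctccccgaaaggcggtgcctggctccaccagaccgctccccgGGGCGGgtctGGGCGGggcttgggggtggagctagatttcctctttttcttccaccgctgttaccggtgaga

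The motifs were the GC box GGGCGG, the nuclear receptor core AGGTCA, the hypoxia response core ACGTG and the cAMP response element TGACGTCA, the last of which shares ACGT with the hypoxia core. The Vegfb window held 4 GC boxes and 2 nuclear receptor cores, the latter starting at positions -241 and -73 from the start. The Angptl2 window and the Vegfa window printed here held 2 GC boxes each and none of the other motifs. The table has another Vegfa start, whose window at chr17:46025164-46025413 (minus strand) held 1 GC box and 1 hypoxia core, starting at position -211. On the minus strand that window lies downstream of the start whose window is printed. Its hypoxia core thus lies after the printed window's start and not before it. Of all 32851 promoter windows of this length in the same table, 32.7% held a GC box, 14% a nuclear receptor core, 16.6% a hypoxia core and 1.55% the cAMP element. A match is a description of these letters and not a site of binding. Promoter windows were matched for 5 of the 7 genes, all except Angpt1 and Angpt2.

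All values below are log2 expression values as deposited, so a difference of 1 is a doubling, and levels are compared between arrays of 1 gene and not between genes. Differences were tested with limma over all probe sets, and a gene is called where the adjusted p lay under 0.05. Arrays of a group correlated between 0.945 and 0.988 across probe sets. A low-signal line was drawn on each array at the 95th percentile of 1354 olfactory and vomeronasal receptor probe sets, genes with little or no expression in fat; it lay between 3.01 and 3.13 in WAT and between 3.29 and 3.70 on all other arrays. The median of all probe sets lay 0.18 (BAT), 0.13 (CL), 0.13 (RS) and 0.10 (RG) above WAT. Adipocyte genes were high on every array, with a mean over 12 genes of 7.69 in WAT 4 and 8.87 to 10.08 on the other 14 arrays. Markers of other cells were present too. The mean of 14 endothelial markers lay between 4.16 (RS 3) and 7.0 (CL 3), and the mean of 11 macrophage markers lay between 7.45 and 8.49 in WAT and between 4.82 and 6.18 elsewhere. Cdh5, the cadherin of endothelial junctions, read 9.13 ± 0.68 (SD, n = 4) in WAT and 9.05 ± 0.57 (SD, n = 3) in BAT. WAT 4 stood apart by its low adipocyte and high macrophage level, and RS 3 by its endothelial level of 4.16 against 5.99 in RS 4, so results that rest on them are also given without them. In sorted pools such as these, fewer cells of a type and less RNA per cell cannot be told apart.

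**Figure D1:**
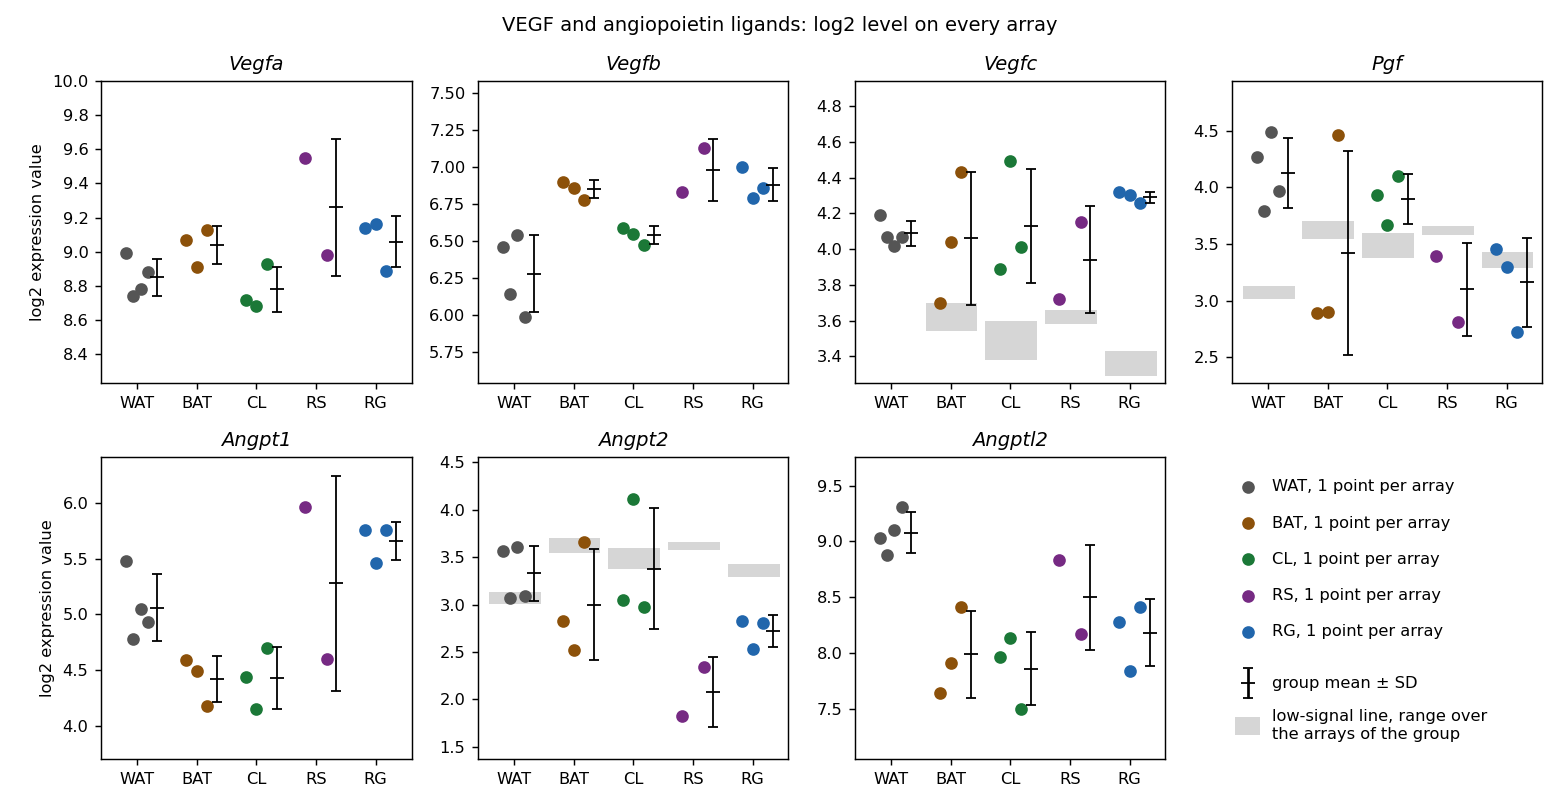
Log2 expression value (y axis) of each ligand gene on the 15 arrays, by group (x axis); bars give the group mean ± SD and grey bands the range of the low-signal line in the group. Angptl2 lies highest in WAT (8.88 to 9.31), Vegfb lowest there (5.99 to 6.54), Angpt1 is high in RG (5.46 to 5.76), and Angpt2 and Pgf reach the grey bands in several groups.

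In the 4 comparisons with WAT, Vegfb was the only ligand gene called higher, and Angptl2 and Angpt2 were the ones called lower. In BAT against WAT, 2 of the 7 were called, where 44.0% of all probe sets were, and 3 of 7 had ranges that did not overlap, against 47.1% of all. In CL against WAT 1 was called (25.2% of all probe sets) and 2 did not overlap (37.7%). In RS against WAT 2 were called (21.4%) and 4 did not overlap (46.0%), and in RG against WAT 2 were called (11.4%) and 5 did not overlap (30.7%). Among the UCP1-positive groups, 1 was called in RG against BAT (14.3% of all) and 1 in CL against RG (2.87%), both times Angpt1. None was called by limma in CL against BAT (2.05% of all), RS against BAT (3.67%), RS against CL (1.27%) or RS against RG (0.682%). At an unadjusted limma p under 0.05 there were 0 in CL against BAT, 2 in RS against BAT, 5 in RS against CL and 0 in RS against RG. The share of all probe sets under that cut was not computed, so these counts have no background to be set against. Ranges did not overlap for 1 of 7 in CL against BAT (20.4% of all), 2 in RS against BAT (30.5%), 1 in RG against BAT (34.7%), 5 in RS against CL (30.4%), 2 in RS against RG (34.6%) and 4 in CL against RG (25.8%). The comparisons with WAT share its arrays, so their calls are not independent.

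**Figure D2:**
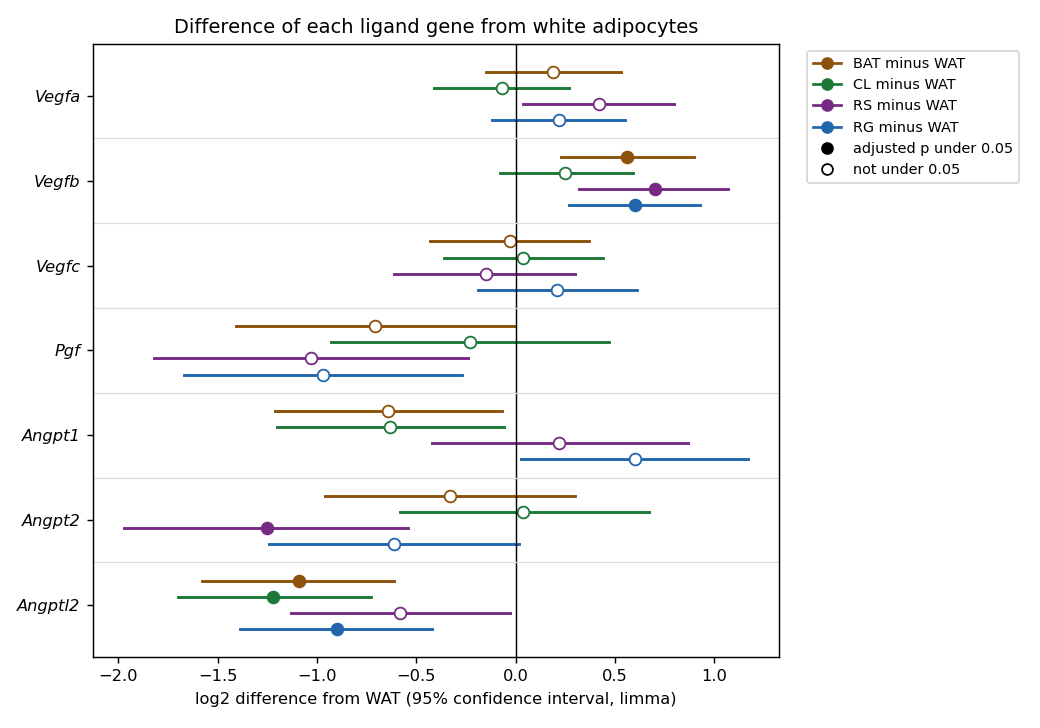
Log2 difference of each ligand gene from WAT (x axis) in BAT, CL, RS and RG, with the 95% confidence interval of the limma fit; filled points have an adjusted p under 0.05. Filled points lie to the right of 0 for Vegfb in BAT, RS and RG and to the left for Angptl2 in BAT, CL and RG and for Angpt2 in RS.

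Vegfa, the main growth factor for capillaries, had a high and even signal. It read 8.99, 8.74, 8.78 and 8.88 in WAT 1 to 4, and 9.07, 8.91 and 9.13 in BAT 1, 3 and 4. In CL 1, 3 and 4 it read 8.72, 8.68 and 8.93, in RS 3 and 4 it read 9.55 and 8.98, and in RG 2, 3 and 4 it read 9.14, 9.16 and 8.89. RS 3 held the highest value of all 15 arrays and CL 3 the lowest, and the BAT, CL, RS and RG ranges all overlapped that of WAT. The group means ran from 8.78 ± 0.13 (SD, n = 3) in CL through 8.85 ± 0.11 (n = 4) in WAT, 9.04 ± 0.11 (n = 3) in BAT and 9.06 ± 0.15 (n = 3) in RG to 9.26 ± 0.40 (n = 2) in RS. No pair of groups differed by an adjusted p under 0.05 in limma. BAT minus WAT was 0.19 ± 0.158 (SE, adjusted p = 0.342), with a 95% interval from -0.15 to 0.53, and CL minus WAT was -0.07 (interval -0.41 to 0.27, adjusted p = 0.767). The difference of 0.42 in RS against WAT (interval 0.04 to 0.80, adjusted p = 0.102) went with RS 3: without RS 3 it was 0.13, and without RS 4 it was 0.70 with an adjusted p = 0.0383.

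Vegfb, a FLT1 ligand tied to fatty acid handling by the vessel wall, was higher in BAT, RS and RG than in WAT. It read 6.46, 6.14, 6.54 and 5.99 in WAT 1 to 4. It read 6.90, 6.86 and 6.78 in BAT 1, 3 and 4, and 6.83 and 7.13 in RS 3 and 4. It read 7.0, 6.79 and 6.86 in RG 2, 3 and 4 and 6.59, 6.55 and 6.47 in CL 1, 3 and 4. Every BAT, RS and RG array lay above every WAT array, while CL 4 lay below WAT 3. Vegfb rose 1.48-fold in BAT, a log2 difference of 0.56 with a standard error of 0.156 (n = 3 against 4, limma adjusted p = 0.00956). It rose 1.62-fold in RS (0.70 ± 0.177, n = 2 against 4, adjusted p = 0.0140) and 1.52-fold in RG (0.60 ± 0.156, n = 3 against 4, adjusted p = 0.0233). In CL the difference was 0.25 (interval -0.08 to 0.59, adjusted p = 0.238). The means ordered as WAT (6.28), CL (6.54), BAT (6.85), RG (6.88) and RS (6.98), and no 2 neighbours in that order differed by an adjusted p under 0.05. CL lay below BAT, RS and RG with no overlap, yet none of these differences passed the test (adjusted p = 0.335, 0.236 and 0.267).

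The rise of Vegfb in BAT was called under all 22 alternative settings, at 0.46 to 0.87. The call in RS was lost without RS 4 (0.55, adjusted p = 0.119) and with the RS and WAT arrays alone in the fit (adjusted p = 0.0633). The call in RG was lost when WAT 2, WAT 4, RG 2 or RG 4 was left out, at 0.50 to 0.61 and adjusted p = 0.0655, 0.0725, 0.0988 and 0.0747. WAT 4, the array with the lowest adipocyte gene level, also had the lowest Vegfb, and without both WAT 4 and RS 3 the RG difference was 0.50 (adjusted p = 0.0578). Over the 15 arrays Vegfb ran with the mean of the 12 adipocyte genes at Pearson r = 0.78 and Spearman rho = 0.61, and at r = 0.37 over 13 arrays without WAT 4 and WAT 2, the farthest from the median. With group means removed r was 0.66. Vegfb ran about as closely against the mean of the macrophage markers (r = -0.80, rho = -0.65) and that of 12 stromal markers (r = -0.78, rho = -0.62). With group means removed these r were -0.32 and -0.33. The part of these levels in the Vegfb difference was not tested.

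Vegfc and Pgf had weaker signals. Vegfc, the lymphatic growth factor, lay between 3.70 and 4.49 on all 15 arrays, always above the low-signal line. Its means lay between 3.94 ± 0.30 (SD, n = 2) in RS and 4.29 ± 0.03 (n = 3) in RG, and none of the 10 comparisons passed the test, with log2 differences from -0.36 to 0.24. The RG values of 4.32, 4.30 and 4.26 lay above all WAT values of 4.02 to 4.19, by a difference of 0.21 (interval -0.19 to 0.61, adjusted p = 0.497). No difference of Vegfc was resolved by these arrays.

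Pgf, placental growth factor, read 4.27, 3.79, 4.49 and 3.97 in WAT 1 to 4 and 3.93, 3.67 and 4.10 in CL 1, 3 and 4, above the low-signal line on each of these arrays. In BAT it read 2.89 and 2.90 on BAT 1 and 3 but 4.46 on BAT 4. It read 3.39 and 2.81 in RS 3 and 4, and 3.46, 3.30 and 2.72 in RG 2, 3 and 4. Both RS arrays, 2 of the 3 BAT arrays and 2 of the 3 RG arrays lay at or below the line, so the size of a fall there is uncertain. All RS and RG arrays lay below all WAT arrays, yet the differences of -1.03 (adjusted p = 0.0591) and -0.97 (adjusted p = 0.0678) did not pass limma's test. BAT 4 decided the BAT result: the difference was -0.71 (adjusted p = 0.0886) with it and -1.24 (adjusted p = 0.00236) without it. Leaving out BAT 4 also brought RS and RG under the threshold (adjusted p = 0.0120 and 0.0141) with the differences themselves the same, as did fits of each with WAT alone (adjusted p = 0.0389 and 0.0287).

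Angpt1, the activating ligand of TIE2, was higher in RG than in BAT and CL. It read 5.76, 5.46 and 5.76 in RG 2, 3 and 4, against 4.44, 4.15 and 4.70 in CL 1, 3 and 4 and 4.59, 4.49 and 4.18 in BAT 1, 3 and 4. It read 5.48, 4.78, 5.05 and 4.93 in WAT 1 to 4. The 2 RS arrays were far apart, at 5.97 (RS 3, the highest of all arrays) and 4.60 (RS 4). Every RG array lay above every BAT and CL array, and every BAT and CL array lay below every WAT array. Angpt1 was 2.36-fold higher in RG than in BAT, by 1.24 ± 0.285 on the log2 scale (SE, n = 3 against 3, limma adjusted p = 0.0123), and 2.35-fold lower in CL than in RG (-1.23 ± 0.285, n = 3 against 3, adjusted p = 0.0350).

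Against WAT no group passed: the differences of Angpt1 were -0.64 in BAT (adjusted p = 0.0622), -0.63 in CL (adjusted p = 0.0926), 0.22 in RS (adjusted p = 0.605) and 0.60 in RG (adjusted p = 0.153). With either RS array left out of the fit, these 2 differences were the same and passed the test, at an adjusted p = 0.0148 in BAT and 0.0264 in CL; they also passed in fits of each with WAT alone (0.0283 and 0.0474). The RS difference was -0.46 without RS 3 and 0.91 (adjusted p = 0.0492) without RS 4. The RG against BAT call held under 21 of 22 settings, at 1.05 to 1.36. The CL against RG call was lost when any 1 of the 6 CL and RG arrays was left out (differences -1.36 to -1.09, adjusted p = 0.0572 to 0.117), and under quantile normalization (-1.14, adjusted p = 0.0576). With RS 3 alone standing for roscovitine, RS minus BAT was 1.55 (adjusted p = 0.0134) and RS minus CL 1.54 (adjusted p = 0.0183); with RS 4 alone they were 0.18 and 0.17.

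Angpt2, the TIE2 ligand of endothelial cells, had a signal close to the low-signal line. It read 3.56, 3.07, 3.61 and 3.09 in WAT 1 to 4, above the line on 3 of 4 arrays. It read 3.05, 4.11 and 2.97 in CL 1, 3 and 4, where only CL 3 lay above the line. It read 2.83, 2.52 and 3.66 in BAT 1, 3 and 4, 1.82 and 2.34 in RS 3 and 4, and 2.83, 2.53 and 2.80 in RG 2, 3 and 4. All BAT, RS and RG arrays were at or below the line, so Angpt2 stood there at the level of receptor genes with little expression. In RS the fitted difference from WAT was -1.25 ± 0.335 (SE, n = 2 against 4, limma adjusted p = 0.0178), but its size and the order of BAT, RS and RG are uncertain, since these values were not above the line. Without RS 3 the difference was -0.99 (adjusted p = 0.132).

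Angptl2, the angiopoietin-like adipokine, was highest in WAT. It read 9.03, 8.88, 9.10 and 9.31 in WAT 1 to 4. It read 7.64, 7.91 and 8.41 in BAT 1, 3 and 4, and 7.96, 8.13 and 7.50 in CL 1, 3 and 4. It read 8.28, 7.84 and 8.41 in RG 2, 3 and 4 and 8.83 and 8.17 in RS 3 and 4. All 11 arrays of UCP1-positive cells lay below all 4 WAT arrays, with RS 3 nearest to them. Angptl2 fell 2.13-fold in BAT, a log2 difference of -1.09 with a standard error of 0.227 (n = 3 against 4, limma adjusted p = 0.00179). It was 2.32-fold lower in CL (-1.22 ± 0.227, n = 3 against 4, adjusted p = 0.00227) and 1.87-fold lower in RG (-0.90 ± 0.227, n = 3 and 4, adjusted p = 0.0202). In RS the difference was -0.58 ± 0.258 (n = 2 and 4, adjusted p = 0.113), and without RS 3 it was -0.91.

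The means of Angptl2 ordered as CL (7.86), BAT (7.99), RG (8.18), RS (8.50) and WAT (9.08), and no neighbours in that order differed by an adjusted p under 0.05, the RS and WAT step included. The falls in BAT and CL were called under all 22 settings, at -1.30 to -0.92 and -1.35 to -1.03. The fall in RG lost its call without WAT 4 (-0.83, adjusted p = 0.0562), RG 2 (-0.96, adjusted p = 0.0547) or RG 3 (-0.74, adjusted p = 0.0875). Markers of macrophages and stromal cells were lower in the same comparisons. Of 11 macrophage markers all 11 fell in BAT, in CL and in RS and 10 in RG. Of all probe sets, 44.0% were called in BAT, 25.2% in CL, 21.4% in RS and 11.4% in RG. Of 12 stromal markers 12 fell in BAT, 8 in CL, 11 in RS and 6 in RG. The stromal median in RS went from -2.52 to -1.51 with WAT 4 and RS 3 left out. Over the 15 arrays Angptl2 and the mean of the macrophage markers had r = 0.72 and rho = 0.53, and r = 0.04 with group means removed. Angptl2 ran more closely, in the opposite direction, with the mean of 8 thermogenic adipocyte genes, among them Ucp1, the sorting marker. There r was -0.86 and rho -0.78, and r was -0.33 with group means removed. The part of these levels in the fall of Angptl2 was not tested.

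The receptors of these ligands were lower in RS and RG than in WAT by their medians. Kdr, the main VEGFA receptor, read 7.88, 8.36, 8.37 and 6.89 in WAT 1 to 4, 7.37, 8.36 and 8.70 in BAT 1, 3 and 4, and 8.55, 9.08 and 7.95 in CL 1, 3 and 4. It read 4.86 and 6.96 in RS 3 and 4 and 5.87, 6.03 and 7.31 in RG 2, 3 and 4. RS 3 and the first 2 RG arrays were thus the lowest, and CL 3 the highest. Tek, the TIE2 receptor, read 3.08 and 4.73 in RS 3 and 4 against 5.54 to 6.80 in WAT, and fell by 2.16 in RS (SE 0.466, adjusted p = 0.00636). Flt1, Kdr and Tie1 also fell in RS against WAT, by 1.81, 1.96 and 1.85 (adjusted p = 0.0443, 0.0270 and 0.0318). Tek and Tie1 lay below the low-signal line on RS 3, so the sizes of their falls are uncertain.

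In all, 6 of the 9 receptor genes fell in RS against WAT and none rose, where 21.4% of all probe sets were called. The median difference of the 9 was -1.85 against 0.13 for all probe sets, and in RG it was -1.17 against 0.10. The others of the 6 were Itga5 and Pirb, the ANGPTL2 receptors. RS 3 decided the result for the 4 endothelial receptors. Without it their calls were lost, and the differences were -0.63 for Flt1, -0.91 for Kdr, -1.34 for Tek and -0.63 for Tie1. With WAT 4 and RS 3 both left out the median of the 9 was -0.98. The Flt1 call was also lost without WAT 1, WAT 2, WAT 3, BAT 3, CL 1, RG 2 or RG 3 (adjusted p = 0.0512 to 0.0888), and the Kdr and Tie1 calls without WAT 2 or WAT 3 (adjusted p = 0.0564 to 0.0679). Under quantile normalization all 3 missed the threshold (adjusted p = 0.129, 0.0729 and 0.106). Of the 14 endothelial markers 3 fell in RS against WAT, with a median of -1.14 that was -0.68 without both arrays. The part of endothelial content in these receptor values was not tested.

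In RG against WAT 3 of the 9 receptors fell, where 11.4% of all probe sets were called. Nrp2, a neuropilin co-receptor, fell by 1.00 (adjusted p = 0.0173), Itga5 by 1.68 and Pirb by 1.90. Leaving out WAT 2, RG 2 or RG 3 lost the Nrp2 call (adjusted p = 0.0507, 0.0876 and 0.0660). Of the 14 endothelial markers 3 fell too. Once WAT 4 and RS 3 were left out together, the receptor median went from -1.17 to -1.26 and the endothelial median from -1.09 to -1.42. Nrp2 was also lower in RG than in BAT, by 1.54 (adjusted p = 0.00255). Kdr was called lower there too (2 of 9, against 14.3% of all probe sets). In RS against BAT Nrp2 was lower (1 of 9, 3.67% of all). Kdr and Tek were lower in RS than in CL (2 of 9, 1.27%), and Kdr and Nrp2 in RG than in CL (2 of 9, 2.87%). Apart from Nrp2 in RG against BAT, each of these calls was lost in some fit that left out 1 array. In BAT against WAT and in CL against WAT 2 receptors fell, in both cases Itga5 and Pirb. These counts lie under or near the shares of all probe sets called, 44.0% in BAT and 25.2% in CL. Itga5 fell by 2.59 in BAT and 1.90 in CL, and Pirb by 2.42 and 2.51. Pirb lay below the low-signal line on BAT 1, BAT 4, CL 4, RS 3 and RS 4, and Itga5 on BAT 1. The sizes of their falls in those groups are thus uncertain. Both were highest in WAT 4 (7.97 and 7.38), the array with the highest macrophage level. Nrp1, the other neuropilin, and Flt4, the VEGFC receptor, were called in none of the 4 comparisons with WAT.

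**Figure D3:**
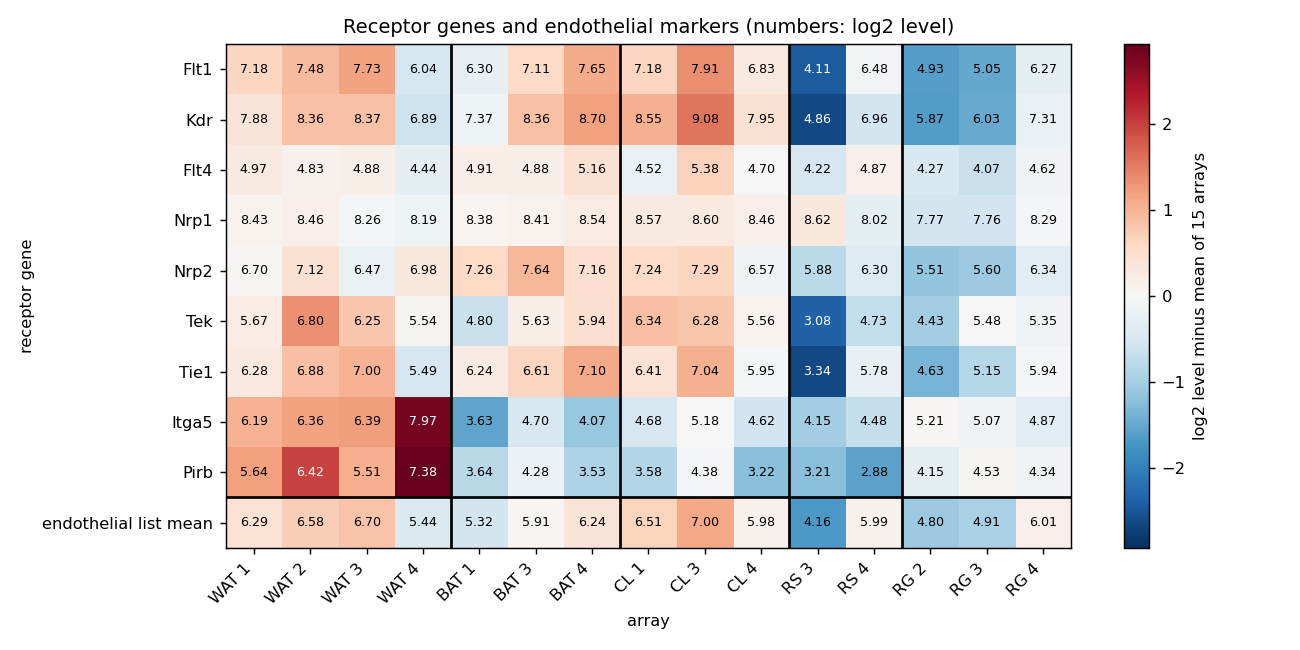
Receptor genes of the ligands (rows) on each array (columns); numbers are log2 levels and colours the level minus the mean over 15 arrays, with the mean of 14 endothelial markers in the last row. Flt1, Kdr, Tek and Tie1 are lowest in RS 3, where the endothelial mean is 4.16, and Itga5 and Pirb are highest in WAT.

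Several ligands varied with the level of endothelial markers across arrays. Vegfa ran against the endothelial mean (Pearson r = -0.87, Spearman rho = -0.79 over 15 arrays), and so did Angpt1 (r = -0.64, rho = -0.47). Angpt2 ran with it (r = 0.76, rho = 0.71), although Angpt2 was above the low-signal line only on WAT 1, WAT 3, WAT 4 and CL 3, so that most of its values have no certain order. Without RS 3 and RG 2, the arrays farthest from the median endothelial level, r was -0.75 for Vegfa, -0.35 for Angpt1 and 0.68 for Angpt2 over 13 arrays. With group means removed it was -0.79, -0.61 and 0.57 over the 15 arrays. Angpt2 ran as closely with the mean of 10 mural markers, genes of the cells that wrap vessels (r = 0.76, rho = 0.72, and 0.72 with group means removed). The lowest Vegfa and the highest Angpt2 were both in CL 3, and the highest Vegfa and the lowest Angpt2 both in RS 3. These are descriptions over arrays that share groups and a common scaling, and 42 such relations of a ligand with a marker list were computed.

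**Figure D4:**
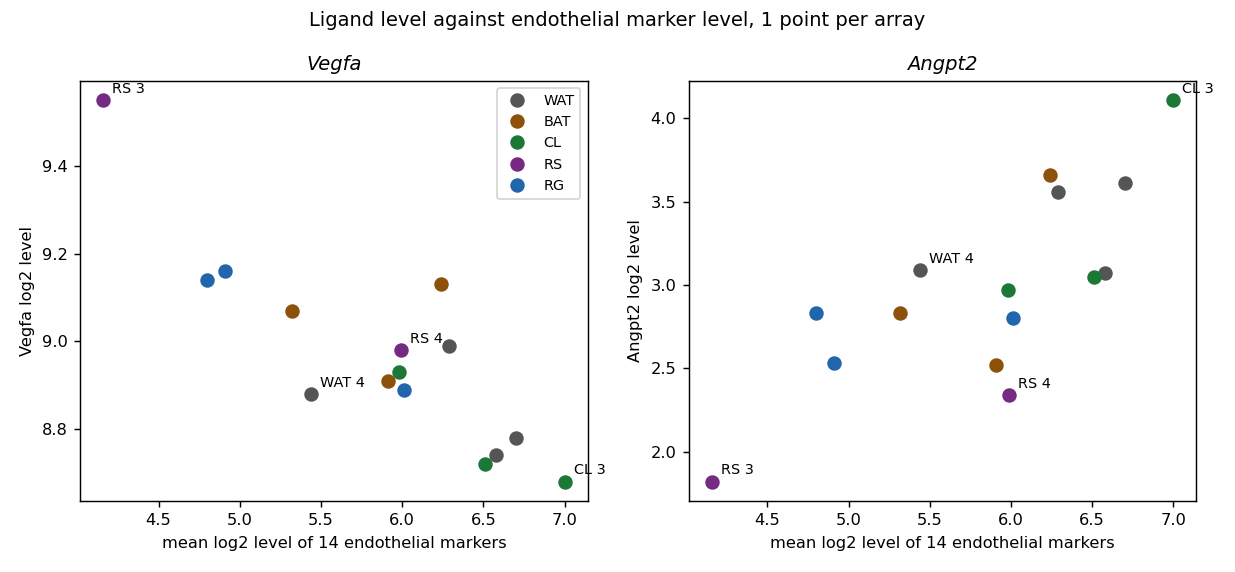
Log2 level of Vegfa (left) and Angpt2 (right) against the mean log2 level of 14 endothelial markers (x axis), 1 point per array, coloured by group. CL 3, at an endothelial mean of 7.0, has Vegfa at 8.68 and Angpt2 at 4.11, and RS 3, at 4.16, has Vegfa at 9.55 and Angpt2 at 1.82.

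Other secreted factors of vessel growth were counted from a fixed list of 18. In BAT against WAT 5 rose and 4 fell. Vegfd, the second lymphatic VEGF ligand, fell by 1.85 (adjusted p = 0.00173) and Pdgfc, a platelet-derived growth factor, by 1.56 (adjusted p = 8.17e-05), while Fgf1, a fibroblast growth factor, rose by 1.02 (adjusted p = 0.00293). In CL against WAT 2 rose and 1 fell, among them Fgf1, which rose by 0.84 (adjusted p = 0.0169), and Pdgfc, which fell by 0.94 (adjusted p = 0.00532). In RG against WAT Fgf1 rose by 0.94 (adjusted p = 0.0179) and Pdgfd fell by 0.90 (adjusted p = 0.0383). In RS against WAT none rose and 1 fell, the endothelial gene Egfl7, by 1.85 (adjusted p = 0.00957). The medians of the list lay between -0.10 and 0.06 in these 4 comparisons. Of all probe sets, 44.0% were called in BAT, 25.2% in CL, 21.4% in RS and 11.4% in RG. The counts of the list are near or under these shares. In RG against BAT 3 of the 18 rose and 2 fell, where 14.3% of all probe sets were called. Pdgfc was higher by 1.14 (adjusted p = 0.00510) and Vegfd by 1.36 (adjusted p = 0.0395). Adm, which encodes the vessel-dilating peptide adrenomedullin, was higher by 1.16 (adjusted p = 0.0330). Angptl7, an angiopoietin-like gene, was lower, with a difference of -0.74 (adjusted p = 0.0407). All RG values of Angptl7 (2.72 to 3.15) lay below the low-signal line, so the size of that difference is uncertain.

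Among 12 proteins that process, trap or guide alongside these ligands, 1 rose and 6 fell in BAT against WAT. In CL 1 rose and 3 fell, in RS 1 and 2, and in RG 0 and 4. The shares of all probe sets called were 44.0% in BAT, 25.2% in CL, 21.4% in RS and 11.4% in RG. The RS count is near its share. Sema3c, a secreted semaphorin, differed from WAT by -1.98 in BAT, -0.97 in CL, -1.58 in RS and -1.15 in RG and was called in all 4. Plxnd1, a semaphorin receptor of endothelial cells, fell by 1.00 in BAT, 1.85 in RS and 1.01 in RG. Thbs1, an inhibitor of vessel growth, was called in the 2 comparisons that called Angpt1. It fell by 1.49 in CL against WAT (adjusted p = 0.00681), was higher in RG than in BAT by 1.31 (adjusted p = 0.0281), and was lower in CL than in RG, with a difference of -1.62 (adjusted p = 0.0328).

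Of 13 regulators of Vegfa transcription 4 rose and 1 fell in BAT against WAT (44.0% of all probe sets called), 4 and 2 in CL (25.2%), 2 and 1 in RS (21.4%) and 3 and 0 in RG (11.4%). The counts in BAT and RS are near those shares. The coactivator genes Ppargc1a and Ppargc1b, which can raise Vegfa through ERR-alpha, rose in all 4 comparisons, by 2.05 and 2.11 in BAT, 1.41 and 1.40 in CL, 1.13 and 0.82 in RS and 1.46 and 1.22 in RG. Egln1, the oxygen-sensing hydroxylase that marks HIF for decay, rose by 1.10 in BAT, 0.75 in CL and 0.70 in RG. Hif1a fell by 0.84 in RS (adjusted p = 0.00971), and without both WAT 4 and RS 3 no regulator was called in RS. Arnt, the partner of the HIF subunits, fell by 0.46 in BAT and 0.45 in CL.

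Of 16 hypoxia-responsive genes 4 rose and 4 fell in BAT against WAT, 2 and 1 in CL, 1 and 2 in RS and 2 and 2 in RG. Set against the same shares of all probe sets, the counts in BAT, CL and RS are near or under the background. Slc2a1, the glucose transporter GLUT1, fell by 1.20 in BAT, 1.31 in CL and 0.70 in RS. Pfkfb3, a switch of glycolysis, rose by 0.99 in CL, 1.12 in RS and 0.87 in RG. Medians of this list lay between -0.13 and 0.12. 

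For each ligand gene, the closest patterns among 11249 named genes above the low-signal line were sought over the 15 arrays. Angptl2 was matched best by Tmed3 (Pearson r = 0.944, Spearman rho = 0.87), Nme4 (0.942 and 0.95) and Atp2c1 (0.937 and 0.88). Angpt1 was matched by Acvr1b, an activin receptor (0.943 and 0.94), Hcar2, the niacin receptor of adipocytes (0.935 and 0.97), and Txndc15 (0.930 and 0.90). Angpt2 was matched by Dach1 (0.939 and 0.90), Efna1, an ephrin ligand (0.903 and 0.88), and Txnl4a (0.894 and 0.91). The nearest genes to Vegfb were Bpnt1 (0.909 and 0.91), Grhpr (0.898 and 0.79) and Akr7a5 (0.895 and 0.75). Those nearest to Vegfa were Fbf1 (0.899 and 0.85), Hsd11b1, which activates glucocorticoids (0.885 and 0.73), and Ntrk2 (0.844 and 0.81). Pgf was nearest to Myo1d (0.864 and 0.91), and Vegfc to Fam220a (0.818 and 0.77), the weakest of the best matches. Among the ligands themselves the highest correlation was that of Pgf and Angpt2 (r = 0.65, rho = 0.77), and the lowest by Pearson r were those of Vegfa and Angpt2 (r = -0.63, rho = -0.51) and of Vegfb and Pgf (r = -0.61, rho = -0.75), the latter the lowest by Spearman rho.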

How the data were processed

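Per the labels' protocols, RNA was amplified and labelled with a GeneChip WT Pico kit. The authors deposited a log2 value for each probe set on each array. RMA, Affymetrix Expression Console and affy 1.36.1 are listed in the submitters' processing notes with no order or settings, and the genome build is not given in the sources used here. RMA gives 1 value per gene here, so isoforms cannot be told apart, and its shared scaling can shift all genes of an array. Arrays carry no read depth; their number limits the precision.

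The 25206 probe sets held no missing value, and 23740 were named by the Entrez number in their identifier through RefSeq (GRCm38.p6), 1466 had no name. limma 3.58.1 (R 4.3.3; lmFit, contrasts.fit, eBayes) fitted all 15 arrays with 1 mean per group and 10 residual degrees of freedom, as two-sided tests, and p-values were adjusted by Benjamini-Hochberg across the whole table in each of 10 comparisons. RS, with 2 arrays, borrows the spread of the other groups. No probe set was filtered out. The fit was tested on simulated data. Ccl21a and Lyz2 of the marker lists were not analysed here.

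Members, gene lists and marker lists were chosen with earlier results of these data known. All members and receptors are named; other listed genes are among the 4 with the smallest adjusted p per list and comparison, and the 3 closest genes by Pearson r are named per member (1 for Pgf and Vegfc). One listed gene that the rule names is not reported here. Replicate numbers in the titles are shared between groups, and no label says that they mark pairs, so the main fit did not use them. After removal of group means, 24 same-numbered pairs correlated between -0.88 and -0.05, and 65 other pairs between -0.28 and 0.40. The same-numbered pairs were thus all negative, so the numbers may carry structure that the main fit ignores. Its source was not tested. Alternatives were quantile normalization, median centring, a filter on dim probe sets, a trended robust variance, 2-group fits, a replicate block, leaving out WAT 4 with RS 3, and leaving out each array.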

Additional observations from a re-analysis of the deposited data

Results flagged for a closer look

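The difference of Angpt1 from WAT took opposite signs in CL (-0.63) and RG (0.60), and the difference between these groups passed the test, with CL minus RG at -1.23 (limma, adjusted p = 0.0350). The Angpt1 difference from WAT also differed between RG and BAT, by 1.24 (adjusted p = 0.0123), with all 3 RG arrays above all 3 BAT arrays. In the WAT group, the mean of the 8 thermogenic genes was 4.02 in WAT 4, far from 4.94 to 4.98 on the other 3 arrays. With a Dixon test at 95%, chance flags about 1 in 20 groups. The test was run in WAT on each of the 7 ligand genes and on the mean of each gene list, and only this mean was flagged.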

How the results depend on the processing

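No called difference of a ligand gene changed sign under any of the 22 alternative settings, of which 15 leave out 1 array. Counts of called ligand genes moved as follows. The share of all probe sets called was computed for the main fit only. Counts of ligand or listed genes under the other settings thus have no background to be set against. By a call of Pgf, the count of 2 became 3 in RS against WAT with median centring. It also became 3 in RG against WAT with only the 2 groups in the fit, again by Pgf. In BAT against WAT the count of 2 became 3, by a call of Angpt1, with median centring, with only the 2 groups in the fit and without both WAT 4 and RS 3, with a leave-one-out range of 2 to 3. In CL against WAT the count of 1 became 2 with only the 2 groups in the fit and 2 without both WAT 4 and RS 3, with a leave-one-out range of 1 to 2. In RS against WAT the count of 2 became 1 with dim probe sets left out (Angpt2 was removed by that filter, which kept 12450 probe sets), 0 with the replicate block and 1 without both WAT 4 and RS 3, with a leave-one-out range of 1 to 3. In RG against WAT the count of 2 became 0 with the replicate block and 1 without both arrays, with a leave-one-out range of 0 to 3. In RG against BAT the count of 1 became 0 with the replicate block. In CL against RG the count of 1 became 0 under quantile normalization and 0 with the replicate block, with a leave-one-out range of 0 to 1. In RS against BAT and RS against CL the leave-one-out ranges were 0 to 1. The block leaves 7 residual degrees of freedom, and for 0 of 15 arrays the best correlated array bore its own number. Whether a call lost there comes from the fewer degrees of freedom or from structure in the replicate numbers was not tested. The blocked BAT and CL against WAT counts were 2 and 1, as without the block. The cause of the other changes was not tested. Where a signal lies near the low-signal line, as for Angpt2 and Pgf, a fall may be understated.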
